A study of Mus musculus with 514 samples.

Results

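The genes described here encode the subunits of the AP-1 transcription factor together with a pair of other genes of the immediate early response. The members were taken by gene name, and all 9 of them (Jun, Junb, Jund, Fos, Fosb, Fosl1, Fosl2, Egr1 and Ier2) were present among the 55168 named genes of the full-length table. The data are RNA-seq of polyadenylated RNA from single mouse MII oocytes and single preimplantation embryos in which the nuclear receptor genes Nr5a2, Esrrb or both had been deleted, and 263 full-length libraries in 22 groups were used. Values are TPM (transcripts per 1000000), a scale that is relative to gene length, so levels can be set beside each other between genes.

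Oocytes were of the genotypes NrHet (heterozygous for the Nr5a2 deletion, n = 18), NrKO (Nr5a2 knockout, n = 12) and Nrpp (wild-type or floxed alleles only, n = 9). Early 2-cell embryos (E2C) were mz_NrHet (n = 29), mz_NrKO (n = 22), m_NrKO (n = 18), z_NrKO (n = 12) and mz_Nrpp (n = 21), where mz stands for maternal and zygotic, m for maternal and z for zygotic. Late 2-cell embryos (L2C) were mz_DHet (heterozygous for both deletions, n = 7), mz_NrKO (n = 10), mz_EKO (Esrrb knockout, n = 10), mz_DKO (knockout of both genes, n = 6), z_NrHet (n = 7) and z_NrKO (n = 6). The 4-cell stage (4C) had mz_DHet (n = 6), mz_NrKO (n = 5), mz_EKO (n = 4) and mz_DKO (n = 10), and the 8-cell stage (8C) had 21 mz_DHet embryos and 10 of each of the same knockouts. Of the controls, only Nrpp carried no deleted allele, so the tests of knockouts against controls from L2C onward compared embryos without a gene against embryos with a single copy. The labels name no mother or litter for any embryo, and p-values therefore measure the spread between these embryos.

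AP-1 is a dimer of basic leucine zipper proteins in which a Jun protein (Jun, Junb, Jund) pairs with another Jun protein or with a Fos protein (Fos, Fosb, Fosl1, Fosl2), while Fos proteins need a Jun partner to bind DNA. Most of these genes, together with Egr1, which encodes a zinc finger transcription factor, and Ier2, which encodes a small nuclear protein, are induced within minutes by growth factors, stress or handling in many cell types, through MAP kinases and serum response factor. Jund is the member that is usually expressed more steadily in other cells.

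The number of genes above 1 TPM ran from 10655 to 15971 per library, and no pair of libraries held identical values. At 8C, whole-gene Esrrb was 47.8 ± 15.5 TPM (SD, n = 21) in mz_DHet and fell to 18.0 ± 8.16 TPM in mz_EKO (n = 10; limma adjusted p = 0.000277) and to 26.8 ± 10.7 TPM in mz_DKO (n = 10; limma adjusted p = 0.00113). Whole-gene Nr5a2 was not lower: it was 472 ± 145 TPM in mz_DHet, 597 ± 241 TPM in mz_NrKO and 778 ± 174 TPM in mz_DKO. In limma it was called higher in mz_DKO and was not called in mz_NrKO. Such a whole-gene value also counts exons outside a deletion, so it does not check the Nr5a2 genotype. One E2C library, mz_NrKO replicate 1, stood apart with a TPM sum of 814735 over named genes, and leaving it out changed no count of members that passed the test.

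In the GENCODE annotation of GRCm38, Jun lies on chromosome 4 (95049034 to 95052222, minus strand), Jund (70698949 to 70700616, plus strand), Junb (84974484 to 84978718, minus strand) and Ier2 (84661331 to 84662852, minus strand) on chromosome 8, Fos on chromosome 12 (85473890 to 85477273, plus strand), Fosb on chromosome 7 (19302696 to 19310051, minus strand), Fosl1 on chromosome 19 (5447547 to 5455946, plus strand) and Fosl2 on chromosome 5 (32135801 to 32157842, plus strand). Jun, Jund and Ier2 are annotated with 1 exon block, that is, without introns. RefSeq promoters of build GRCm38.p6 were matched for 6 of the 9 members, and Fosl1, Egr1 and Ier2 had no entry. The 250 bases before the start are shown for Jun (chr4:95052223-95052472, minus strand, 61.2% GC), whose transcript rose in 8C embryos lacking both receptors, and for Junb (chr8:84978749-84978998, minus strand, 66.4% GC), its relative that did not pass the test there. Capitals mark the AP-1-like site TGACATCA.
Jun: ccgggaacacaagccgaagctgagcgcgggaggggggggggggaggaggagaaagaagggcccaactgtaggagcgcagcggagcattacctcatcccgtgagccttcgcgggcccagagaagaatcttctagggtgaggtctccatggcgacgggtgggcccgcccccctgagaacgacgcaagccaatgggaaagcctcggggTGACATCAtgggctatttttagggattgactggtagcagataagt
Junb: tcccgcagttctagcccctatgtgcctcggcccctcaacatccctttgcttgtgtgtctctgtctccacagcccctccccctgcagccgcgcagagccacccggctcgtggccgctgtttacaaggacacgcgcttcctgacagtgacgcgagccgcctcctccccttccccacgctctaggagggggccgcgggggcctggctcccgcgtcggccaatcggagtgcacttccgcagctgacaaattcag

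The site in capitals was the only match to TGACATCA among the 6 promoters, 45 bases before the Jun start. TGACATCA occurred on either strand in 2.93% of all 32851 RefSeq promoters of the same length. The search covered both strands of each window for 8 motifs. None of the 6 promoters held the AP-1 site TGACTCA (in 4.46% of all promoters), the CRE site TGACGTCA (1.55%), the nuclear receptor half-site AAGGTCA (4.08%) or a CArG box (1.47%). A CCAAT box (CCAAT, 33.8%) was found in Jun at 65 and in Junb at 36 bases before the start. The SP1 box GGGCGG (32.7%) was found in Jun, Fos, Fosb and Fosl2, and TATAAA (12.4%) in Fos, 33 bases before its start. The only matches to overlap were a pair of SP1 boxes in Fosb. Sites more than 250 bases before a start were not searched, and Egr1, Fosl1 and Ier2 had no window. These matches describe letters in these windows, and 2 windows lie away from the GENCODE starts given above. The Jund window ends at base 70697738 of chromosome 8, upstream of that gene model, and the Fosl2 window (32136222 to 32136471 on chromosome 5) lies inside its gene model.

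The stage profile was read first in control embryos (NrHet oocytes, mz_NrHet at E2C, mz_DHet from L2C), and each stage had a different set of abundant members. By the median, Fosb led in the oocyte, Egr1 at E2C, Jund at L2C and 4C, and Ier2 at 8C, although the range of the leading gene overlapped that of the next at every stage but L2C. The summed level of the 4 Fos family genes had a median of 15.2 TPM in oocytes (range 9.22 to 29.7), 11.5 TPM at E2C (5.19 to 20.2), 2.06 TPM at L2C (0 to 4.21), 2.73 TPM at 4C (0 to 7.21) and 1.51 TPM at 8C (0 to 7.21). The summed level of the 3 Jun family genes had a median of 1.59 TPM in oocytes (0 to 11.1), 5.44 TPM at E2C (0 to 21.6), 41.8 TPM at L2C (16.3 to 71.0), 35.6 TPM at 4C (17.3 to 47.0) and 25.2 TPM at 8C (6.88 to 78.0). The Fos family thus had the higher median in the oocyte and at E2C, and the Jun family from L2C on. In values from whole embryos, fewer cells with a transcript and less of it per cell cannot be told apart.

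**Figure D1:**
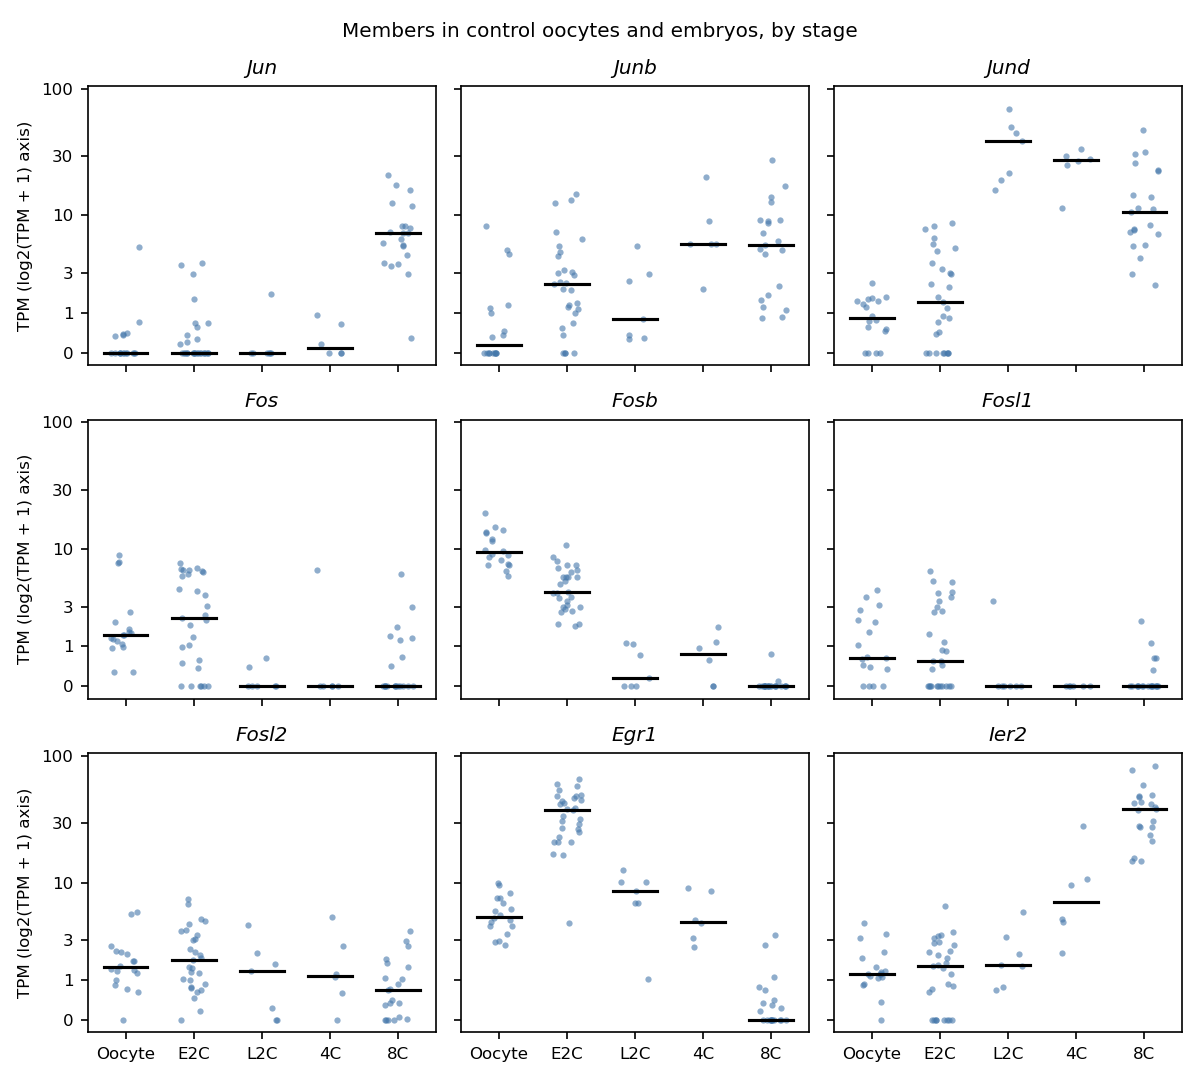
Levels of the 9 members in control oocytes and embryos by stage, on a log2(TPM + 1) axis, with 1 point per library and a line at the group median. Fosb falls from a median of 9.38 TPM in oocytes, Egr1 peaks at 38.1 TPM at E2C, Jund is highest at L2C (39.3 TPM), and Jun (7.11 TPM) and Ier2 (38.9 TPM) are highest at 8C.

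Among the Jun genes, Jun itself was near 0 until 8C. Its median was 0 TPM in oocytes (maximum 5.30), at E2C (maximum 3.77) and at L2C (maximum 1.77, with 6 of 7 embryos at 0), and 0.0807 TPM at 4C (maximum 0.929). At 8C it ranged from 0.299 to 21.3 TPM with a median of 7.11, and 20 of 21 embryos exceeded the highest 4C embryo. Between 4C and 8C, Jun rose by a log2 fold change of 2.96 ± 0.66 (SE; limma adjusted p = 0.000126).

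Jund followed another course. It ranged from 0 to 2.39 TPM in oocytes (median 0.826) and from 0 to 8.68 TPM at E2C (median 1.44). At L2C all 7 embryos were higher than every E2C control, between 16.03 and 70.2 TPM (median 39.3), a log2 rise of 3.73 ± 0.40 (limma adjusted p = 1.55e-17). It stayed between 11.5 and 34.2 TPM at 4C (median 28.0) and then ranged from 2.26 to 47.8 TPM at 8C (median 10.6), with overlap between these stages. The log2 change from 4C to 8C was -2.62 ± 0.51 with the labelled date in the fit (limma adjusted p = 1.37e-05) and -1.11 without it (limma adjusted p = 0.0239). By its control median Jund was the most abundant AP-1 gene at L2C, 4C and 8C, and its range overlapped that of Junb at 4C and those of Jun and Junb at 8C.

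Junb was low and variable throughout, and its ranges overlapped at every step. It had a median of 0.156 TPM in oocytes (0 to 8.10), 2.30 TPM at E2C (0 to 15.1), 0.790 TPM at L2C (0.269 to 5.47), 5.70 TPM at 4C (2.02 to 20.5) and 5.56 TPM at 8C (0.840 to 27.9). From oocyte to E2C it rose by 0.98 ± 0.35 on the log2 scale (limma adjusted p = 0.0135), but with Nrpp oocytes and mz_Nrpp embryos as controls the change was 0.47 (limma adjusted p = 0.485). From L2C to 8C it rose by 2.08 ± 0.65 (limma adjusted p = 0.00492).

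Of the Fos genes, Fosb had the highest median in control oocytes, at 5.81 to 19.6 TPM (median 9.38). It ranged from 1.85 to 10.8 TPM at E2C (median 4.15) and from 0 to 1.14 TPM at L2C, where every embryo was below every E2C control. The log2 changes were -1.01 ± 0.20 from oocyte to E2C (limma adjusted p = 2.62e-06) and -2 ± 0.28 from E2C to L2C (limma adjusted p = 2.31e-11). At 8C, 19 of 21 control embryos were at 0 TPM. Fos, the classical partner of Jun, had a median of 1.45 TPM in oocytes (0.279 to 8.85) and 2.32 TPM at E2C (0 to 7.65). At L2C it was at 0 in 5 of 7 control embryos (maximum 0.631 TPM), a log2 change of -1.46 ± 0.39 with overlapping groups (limma adjusted p = 0.000457). Fosl1 and Fosl2, which encode Fos proteins without the strong activation domain of Fos, were low at all stages. Fosl1 did not exceed 6.54 TPM in any control library and was at 0 in all 25 libraries of the 4C stage. Fosl2 did not exceed 7.30 TPM, with stage medians from 0.678 to 1.84 TPM.

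Egr1 had a single peak at E2C. Oocytes held 2.68 to 10.0 TPM (median 5.08), and E2C embryos 4.42 to 66.2 TPM (median 38.1), of which 28 of 29 exceeded the highest oocyte. The log2 rise was 2.44 ± 0.22 (limma adjusted p = 4.14e-23). Egr1 then ranged from 1.05 to 12.6 TPM at L2C (median 8.48), a log2 change of -2.10 ± 0.30 with overlapping groups (limma adjusted p = 1.23e-10), and from 2.57 to 9.08 TPM at 4C (median 4.57). At 8C, 11 of 21 embryos were at 0 TPM and none exceeded 3.42 TPM, a log2 change from 4C of -3.75 ± 0.57 (limma adjusted p = 2.34e-08).

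Ier2 moved the other way. Its median was 1.23 TPM in oocytes (0 to 4.44), 1.57 TPM at E2C (0 to 6.36) and 1.61 TPM at L2C (0.683 to 5.56). It was 7.16 TPM at 4C (2.21 to 28.5) and 38.9 TPM at 8C (15.0 to 83.6), where every embryo exceeded every L2C control. The log2 rise was 3.32 ± 0.58 from L2C to 8C (limma adjusted p = 7.73e-07) and 1.78 ± 0.72 from 4C to 8C (limma adjusted p = 0.039). The second of these calls was lost in 3 of 6 alternatives, with limma adjusted p up to 0.198.

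Set against all genes, these steps were common events. From oocyte to E2C 3 of 9 members passed the test, beside 50.8% of all genes tested, and from E2C to L2C 4 of 9 did, beside 65.6%. From L2C to 4C 0 of 7 tested members passed in limma, beside 0.0221% of genes, although 1307 genes had an unadjusted p under 0.05. From 4C to 8C 4 of 7 passed, beside 38.6%, and from L2C to 8C 5 of 7, beside 50.4%. The median log2 change of all genes was 0.277 from oocyte to E2C and -0.436 from 4C to 8C, so the rises of Jun and Ier2 ran against that shift. For the first pair of steps stage and labelled date cannot be told apart, and at E2C to L2C the control genotype also changed from mz_NrHet to mz_DHet. The 4C and 8C embryos share no labelled date either. Steps between them rest on date differences estimated through L2C.

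The knockouts were then compared with heterozygous controls stage by stage. Before 8C no member passed the test in any comparison, and few genes did at all. In oocytes 2 members, Fosb and Egr1, were high enough to be tested, and neither passed in NrKO against NrHet, beside 0.212% of all genes (1062 genes at an unadjusted p under 0.05), in NrKO against Nrpp (1.2%) or in NrHet against Nrpp (0.0335%). At E2C 7 members were tested and none passed in mz_NrKO (5.17% of genes), m_NrKO (0.245%) or z_NrKO (0%, with 701 genes at an unadjusted p under 0.05) against mz_NrHet. The same held for mz_NrKO against mz_Nrpp (1.79%) and against m_NrKO (0%, with 918 genes at an unadjusted p under 0.05), and for mz_NrHet against mz_Nrpp (0.268%). At L2C 4 members were tested and none passed in mz_NrKO (0.127%), mz_EKO (0%, with 947 genes at an unadjusted p under 0.05), mz_DKO (0.141%) or z_NrKO against z_NrHet (0.099%). At 4C the same 4 members were tested and none passed in mz_NrKO (0.675%), mz_EKO (0%, with 803 genes at an unadjusted p under 0.05) or mz_DKO (2.58%). At each stage from L2C to 8C the 3 mz knockouts share the mz_DHet controls.

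Egr1 was high at E2C in every genotype. Egr1 ranged from 9.10 to 62.2 TPM in mz_NrKO (median 44.1), from 28.5 to 68.9 TPM in m_NrKO (median 50.5), from 15.5 to 70.2 TPM in z_NrKO (median 37.5) and from 15.9 to 92.0 TPM in mz_Nrpp (median 35.1). All of these ranges overlapped that of mz_NrHet. The log2 difference from mz_NrHet was 0.06 ± 0.14 in mz_NrKO (limma adjusted p = 0.856) and 0.24 ± 0.15 in m_NrKO (limma adjusted p = 0.482). The lowest mz_NrKO value belonged to the library that stood apart.

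Egr1 also differed between the dates given in the labels, whose meaning the labels do not state. In mz_NrHet its median was 46.4 TPM on 1 August (n = 12), 27.8 TPM on 7 November (n = 7), 48.6 TPM on 14 November (n = 3) and 21.5 TPM on 11 January (n = 7). In mz_Nrpp it was 39.5 TPM on 1 August, 75.6 TPM on 14 November (n = 6) and 24.7 TPM on 11 January (n = 9). The date term at E2C passed the test for Egr1 (limma F-test adjusted p = 1.77e-12) and for 5 of 7 tested members in all, beside 61.9% of all genes. Fosb in m_NrKO embryos was 9.33 ± 3.95 TPM (SD, n = 18), against 4.86 ± 2.22 TPM in mz_NrHet (n = 29), with overlapping ranges and a log2 difference of 0.53 ± 0.23 (limma adjusted p = 0.281). On the single date 1 August, Fosb ranged from 6.14 to 13.2 TPM in 7 m_NrKO embryos and from 1.85 to 10.8 TPM in 12 mz_NrHet embryos. There the difference passed the test (1.20 ± 0.32, limma adjusted p = 0.0496, beside 2.41% of all genes called). All 7 of these m_NrKO embryos exceeded 5 TPM, and Fosb passed the filter of that fit only through them. No conclusion is drawn from that call.

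**Figure D2:**
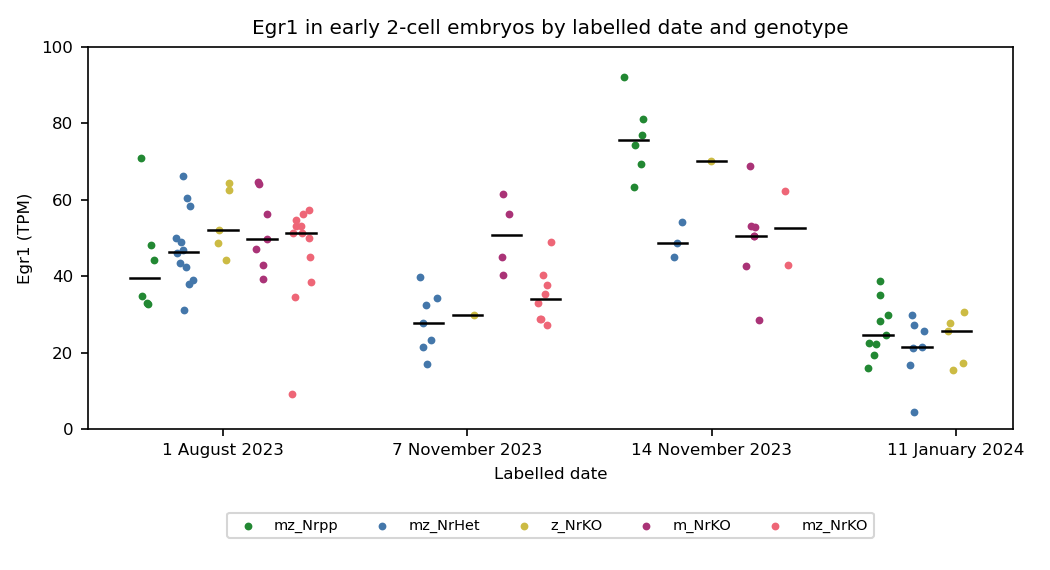
Egr1 in early 2-cell embryos by labelled date and genotype, in TPM, with 1 point per embryo and a line at the group median. The mz_NrHet median is 46.4 TPM on 1 August and 21.5 TPM on 11 January, and the mz_Nrpp median is 75.6 TPM on 14 November and 24.7 TPM on 11 January.

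At 8C, embryos lacking both receptors had more Jun, Jund and Ier2 than the heterozygous controls, and Junb did not pass the test. Jun was 10.4 to 52.1 TPM in mz_DKO (median 40.6), against 0.299 to 21.3 TPM in mz_DHet (median 7.11). All 10 mz_DKO embryos were above the control median and 7 were above the highest control, with overlap in the others. The log2 difference was 1.89 ± 0.38 (limma adjusted p = 8.16e-05).

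Jund was 24.5 to 69.9 TPM in mz_DKO (median 50.1), against 2.26 to 47.8 TPM in mz_DHet (median 10.6). All 10 mz_DKO embryos were above the control median and 6 above the highest control, and the log2 difference was 1.61 ± 0.30 (limma adjusted p = 2.5e-05). Ier2 was 44.9 to 166 TPM in mz_DKO (median 111), against 15.0 to 83.6 TPM in mz_DHet (median 38.9). Again all 10 were above the control median and 6 above the highest control, with a log2 difference of 1.22 ± 0.26 (limma adjusted p = 0.000163).

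Junb was 1.37 to 13.0 TPM in mz_DKO (median 7.24), within the control range of 0.840 to 27.9 TPM (median 5.56). Its log2 difference was -0.11 ± 0.41, with a 95% interval from -0.93 to 0.71. The increase in mz_DKO therefore held for 3 of the 4 tested members, all upward, beside 33.7% of all genes called in either direction and 18.9% called higher. The median log2 difference of the 4 tested members was 1.42, and that of all tested genes 0.05.

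Of the single knockouts, mz_NrKO had 1 member past the test and mz_EKO none. In mz_NrKO, Jund was 2.73 to 72.7 TPM (median 36.3), with 6 of 10 embryos above the control median, and it was the 1 of 4 members that passed (log2 difference 0.99 ± 0.29, limma adjusted p = 0.0084), beside 28.3% of all genes called and 14.1% called higher. Jun was 0.937 to 31.5 TPM in mz_NrKO (median 7.65), a log2 difference of 0.27 ± 0.37 with a 95% interval from -0.48 to 1.02. Ier2 was 21.2 to 125 TPM in mz_NrKO (median 43.4), a log2 difference of 0.56 ± 0.25 (limma adjusted p = 0.0911).

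In mz_EKO 0 of 4 members passed in limma, beside 0.00919% of all genes called and 257 genes at an unadjusted p under 0.05. Jun was 0.931 to 20.8 TPM there (median 14.3; 95% interval of the log2 difference -0.33 to 1.19), Jund 4.64 to 29.9 TPM (median 12.7; -0.79 to 0.41) and Ier2 18.0 to 80.9 TPM (median 45.1). All 3 ranges overlapped those of the controls.

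The knockouts were also compared with each other. Against mz_EKO, mz_DKO embryos were higher in Jun (log2 difference 1.46, limma adjusted p = 0.00754), Jund (1.80, limma adjusted p = 4.09e-05) and Ier2 (1.13 ± 0.29, limma adjusted p = 0.00224), 3 of 4 members beside 30.2% of all genes. Against mz_NrKO, 0 of 4 members differed in mz_DKO, beside 0.147% of all genes and 1092 genes at an unadjusted p under 0.05. The log2 difference there was 1.62 ± 0.45 for Jun (limma p = 0.000725, adjusted p = 0.134), with all 10 mz_DKO embryos above the mz_NrKO median. It was 0.61 ± 0.35 for Jund and 0.66 ± 0.31 for Ier2. The mz_NrKO group holds embryos of 15 July, a date that mz_DKO lacks, and on the shared date 8 March the difference was 1.24 ± 0.53 for Jun, 0.13 ± 0.24 for Jund (limma p = 0.589) and 0.52 ± 0.36 for Ier2, each with a limma adjusted p of 0.988. Jund was also higher in mz_NrKO than in mz_EKO (1.19, limma adjusted p = 0.0116), the only 1 of 4 members to differ, beside 22.7% of all genes.

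**Figure D3:**
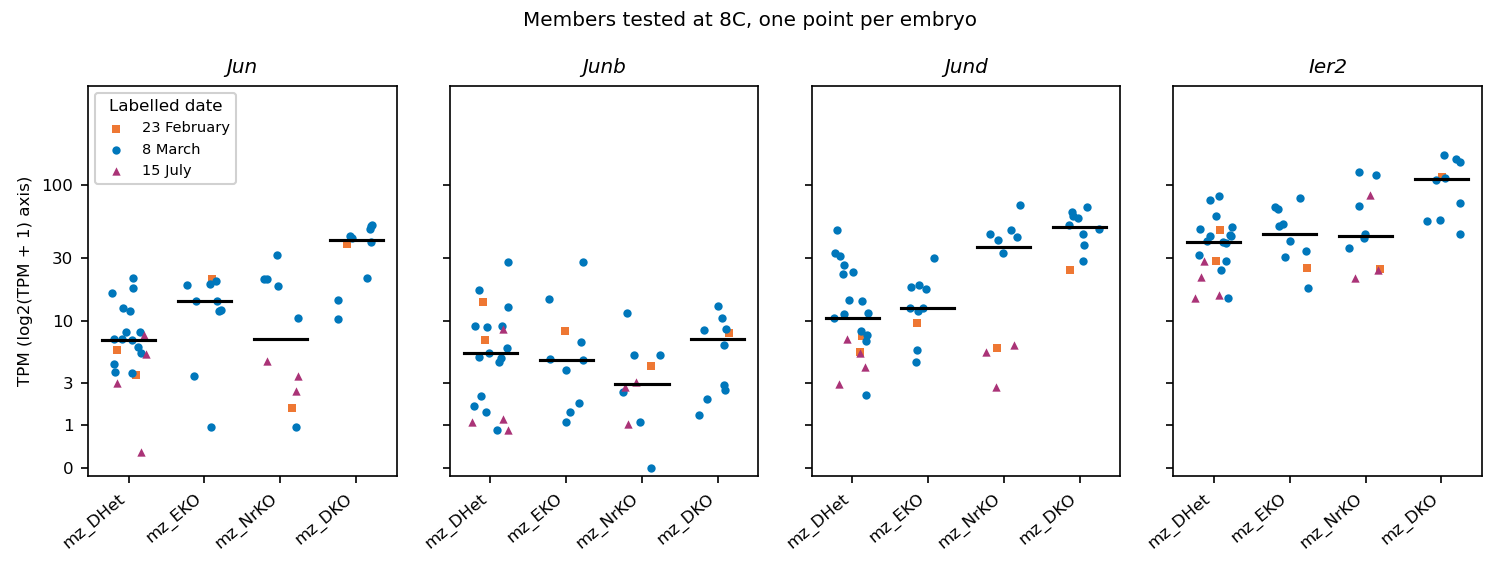
Jun, Junb, Jund and Ier2 at 8C in TPM, with 1 point per embryo, colour and marker for the labelled date, and a line at the median of each genotype. The mz_DKO medians are 40.6 TPM for Jun, 50.1 TPM for Jund and 111 TPM for Ier2, above the mz_DHet medians of 7.11, 10.6 and 38.9 TPM, and the mz_NrKO embryos of 8 March lie apart from those of 15 July for Jund.

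The mz_NrKO values for Jund were also read by date. On 8 March the 6 mz_NrKO embryos held 32.4 to 72.7 TPM (median 43.4), against 2.26 to 47.8 TPM in 15 mz_DHet embryos (median 14.2). On 15 July the 3 mz_NrKO embryos held 2.73, 5.66 and 6.48 TPM, against 2.92 to 7.22 TPM in 4 mz_DHet embryos, and on 23 February the single mz_NrKO embryo held 6.12 TPM. The log2 difference was 1.57 ± 0.35 on 8 March (limma adjusted p = 0.000472, beside 29.2% of all genes called) and -0.01 ± 0.55 on 15 July (95% interval -1.12 to 1.10; 11.4% of all genes called). The difference between these dates was 1.58 ± 0.65 (limma p = 0.0191, adjusted p = 0.233, beside 1.09% of all genes called), in a comparison chosen after the values had been seen. Without the date in the fit, the log2 difference of Jund in mz_NrKO was 0.77 (limma adjusted p = 0.162).

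The mz_DKO embryos carried only the dates 23 February (n = 1) and 8 March (n = 9), so the same split could not be made for them. Within 8 March alone, the mz_DKO difference was 1.80 for Jun (limma adjusted p = 3.1e-05), 1.71 for Jund (limma adjusted p = 0.00016) and 1.16 for Ier2 (limma adjusted p = 0.000669), beside 39.4% of all genes called. The date term at 8C passed the test for Jund (limma F-test adjusted p = 1.21e-06), Ier2 (adjusted p = 0.0121) and Jun (adjusted p = 0.028), beside 64.9% of all genes.

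Fos, the partner gene, was below the test's filter at 8C (at least 5 TPM in 10 libraries). It was 0 to 7.42 TPM in mz_DKO (median 2.93, with 2 of 10 embryos at 0), against 0 to 6.15 TPM in mz_DHet (median 0, with 13 of 21 at 0). In mz_EKO it was at 0 in 8 of 10 embryos and in mz_NrKO its median was 0.414 TPM. At 4C, Fos did not exceed 0.778 TPM in mz_DKO, and 5 of 6 controls were at 0, the other being at 6.61 TPM. The mz_DKO effect on Fos differed between 8C and 4C by 1.45 ± 0.47 (limma adjusted p = 0.0428), the 1 of 7 tested members for which this difference passed, beside 5.8% of all genes. Fos entered that joint fit through few libraries, and 3 of those that reached 5 TPM were mz_DKO embryos of 8C. Without these 3 embryos Fos would not have passed the filter, so no conclusion is drawn from that call. That call was lost with a pseudocount of 0.1 TPM (limma adjusted p = 0.175). Without that control embryo (mz_DHet replicate 2) the difference was 0.96 ± 0.46 (limma adjusted p = 0.252), so the call rested on 1 library. The same embryo had the highest Jun (0.929 TPM), Junb (20.5 TPM), Egr1 (9.08 TPM) and Ier2 (28.5 TPM) of the 6 controls at 4C. At 8C, Fosb and Egr1 did not exceed 3.42 TPM in any embryo, and neither did Fosl1 apart from 1 mz_EKO embryo with 6.40 TPM.

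Reads that carry a unique molecular identifier (UMI) at the 5′ end, processed by the authors into a separate table, were tested in the same way at 8C. The protocol divides reads into UMI and full-length reads, so the UMI values are a second reading of the same embryos and no independent set. No UMI library of 8C is dated 15 July. In UMI TPM, Jun was 11.0 to 59.7 in mz_DKO (n = 9) and 2.74 to 16.9 in mz_DHet (n = 16), a log2 difference of 1.72 ± 0.35 (limma adjusted p = 0.000133; 34.6% of all genes called). Jund was 11.7 to 23.1 against 1.02 to 20.4 UMI TPM, a difference of 1.39 ± 0.27 (limma adjusted p = 8.27e-05). Ier2 was 62.3 to 260 against 28.0 to 127.5 UMI TPM, a difference of 1.08 ± 0.28 (limma adjusted p = 0.0023). All 3 pairs of ranges overlapped. In the 5 mz_NrKO libraries Jund was 13.3, 11.9, 14.8, 8.97 and 15.4 UMI TPM, a log2 difference of 0.96 ± 0.33 (limma adjusted p = 0.0284; 25.4% of all genes called). The authors' deposited table gives, for full-length reads at 8C in mz_DKO, log2 fold changes of 2.04 for Jun, 1.56 for Jund and 1.24 for Ier2. For mz_NrKO it gives 0.956 for Jund (authors' false discovery rate 0.0146) and 0.702 for Ier2 (0.0198), of which limma called only Jund. Rates under 0.1 at 8C also belong to Fos in mz_DKO (2.70, rate 0.058) and Fosl2 in mz_NrKO (-1.48, rate 0.0903). Both genes were below the filter of the limma test. In the authors' UMI values for mz_NrKO, Jund has a rate of 0.251 and Ier2 of 0.0872. Before 8C, the authors' rates under 0.1 belong to Jun in 4C mz_DKO (3.76, rate 0.0649) and Ier2 in L2C mz_NrKO (3.01, rate 0.0978).

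Some members had higher medians in Nr5a2 knockouts than in controls before 8C, none of them past the test. At L2C Junb had a median of 3.10 TPM in mz_NrKO and 0.790 TPM in mz_DHet, Egr1 16.8 and 8.48 TPM, and Jund 96.1 TPM in z_NrKO and 55.4 TPM in z_NrHet. In UMI reads the Jund difference of z_NrKO was 1.52 ± 0.71 (limma p = 0.0373, adjusted p = 0.737). Ier2 at L2C was 3.94 to 23.5 TPM in mz_NrKO (median 8.59), against 0.683 to 5.56 TPM in mz_DHet (median 1.61), and all 10 knockouts were above the control median. The log2 difference was 1.37 ± 0.81 (limma adjusted p = 0.682). All 10 carry the date 8 March, from which the control has only 2 embryos, with 0.683 and 1.58 TPM. In z_NrKO embryos at L2C it was 0 to 17.2 TPM (median 5.78), against 0 to 4.03 TPM in z_NrHet (median 0), all of the same date (1.54 ± 0.69, limma adjusted p = 0.52).

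At 4C Ier2 was 20.8, 43.7, 68.5, 19.4 and 47.7 TPM in the 5 mz_NrKO embryos, against 2.21 to 28.5 TPM in mz_DHet (median 7.16). Of these, 3 exceeded the highest control, and the log2 difference was 2.36 ± 0.72 (limma p = 0.00273, adjusted p = 0.133). Without the control embryo of 28.5 TPM the difference was 2.66 ± 0.72 (limma adjusted p = 0.08). In mz_DKO Ier2 was 2.76 to 78.0 TPM (median 28.3; 1.45 ± 0.57, limma adjusted p = 0.234). The 4 mz_EKO embryos held 4.49, 1.07, 5.11 and 3.64 TPM, within or below the control range (-0.67 ± 0.79, limma adjusted p = 0.934).

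A contrast added after these values had been seen averaged each knockout's effect over L2C, 4C and 8C. Averaged this way, Ier2 was higher by 1.30 ± 0.32 in mz_NrKO (limma adjusted p = 0.00348), the 1 of 7 tested members called, beside 6.64% of all genes. In mz_DKO it was higher by 0.93 ± 0.30 (limma adjusted p = 0.0257), together with Jun (1.18 ± 0.27, limma adjusted p = 0.00108) and Jund (0.81 ± 0.21, limma adjusted p = 0.00483), 3 of 7 members beside 11.7% of all genes. In UMI reads the averaged Ier2 effect of mz_NrKO was 1.37 ± 0.39 (limma adjusted p = 0.0216; 5.49% of all genes called). For mz_DKO the UMI reads gave 0.92 ± 0.28 for Jun (limma adjusted p = 0.0221; 9.01% of all genes called), while the calls for Jund (0.79 ± 0.29, limma adjusted p = 0.0756) and Ier2 (0.89 ± 0.35, limma adjusted p = 0.101) were lost. In mz_EKO the averaged Ier2 effect was -0.26 ± 0.32 (limma adjusted p = 0.999), and 0% of all genes were called. Without the 8C libraries, the averaged Ier2 effect of mz_NrKO was 1.66 ± 0.52 (limma adjusted p = 0.0977), beside 1.41% of all genes called. No member was called in that reduced fit for mz_DKO (2.53% of all genes) or mz_EKO (0%).

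**Figure D4:**
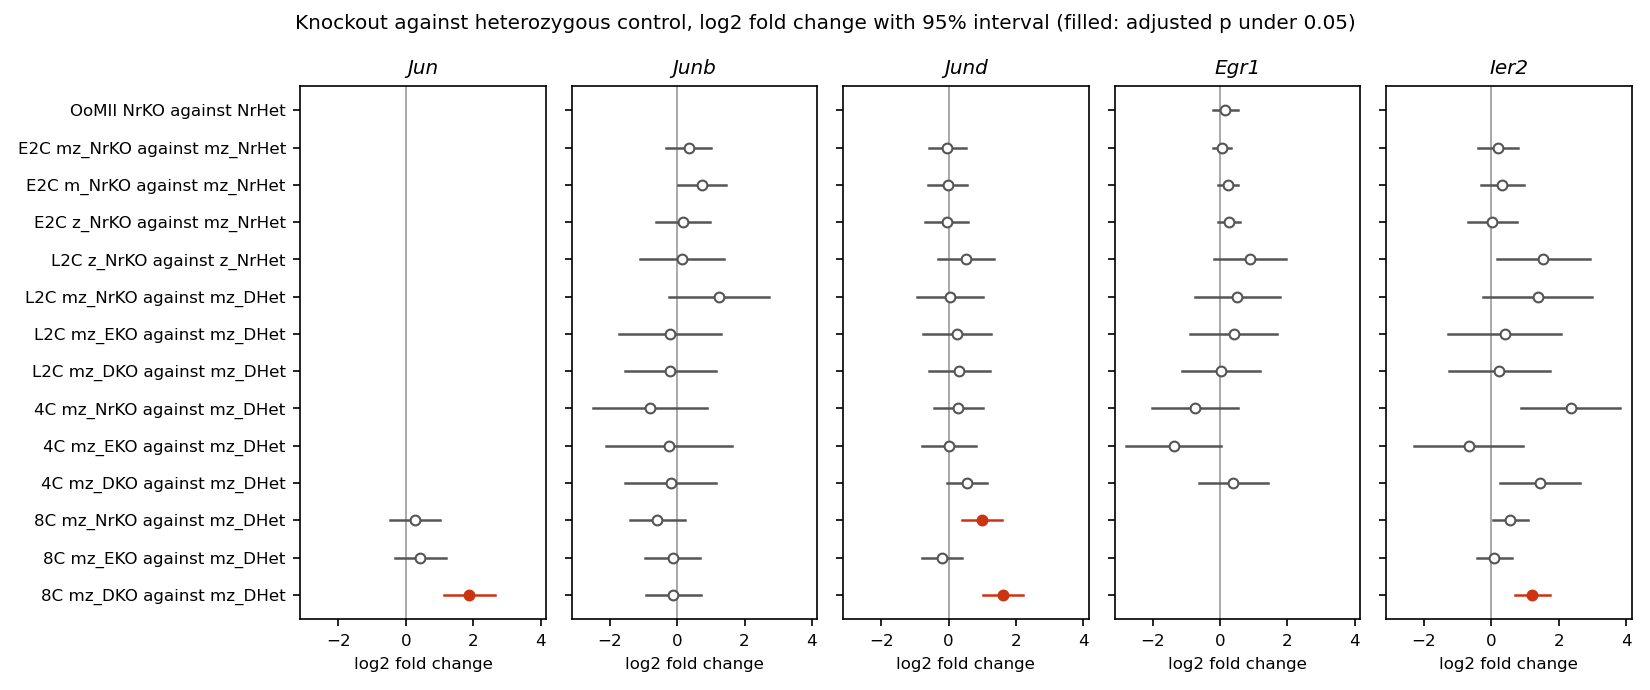
Log2 differences from heterozygous controls with 95% intervals for Jun, Junb, Jund, Egr1 and Ier2 in each knockout and stage, with filled red symbols for adjusted p under 0.05 and blank rows where a gene was not tested. The filled symbols lie at 8C, for Jun, Jund and Ier2 in mz_DKO (1.89, 1.61 and 1.22) and for Jund in mz_NrKO (0.99).

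Before 8C, Jun did not reach the filter for the stage tests, and Jund did not pass them. At 4C Jun was 0 to 16.6 TPM in mz_DKO (median 2.13, with 6 of 10 embryos above 1 TPM), 7.13, 4.12, 0 and 0 TPM in mz_EKO, and 0.560, 4.36, 0, 0 and 0 TPM in mz_NrKO. No 4C control exceeded 0.929 TPM. Jund at L2C was 42.2 to 192 TPM in mz_NrKO, 8.13 to 132 TPM in mz_EKO and 13.0 to 151 TPM in mz_DKO, with log2 differences of 0.05 ± 0.49, 0.26 ± 0.50 and 0.32 ± 0.45 after the date term. At 4C it was 22.8 to 89.7 TPM in mz_DKO (median 32.4; 0.55 ± 0.29, limma adjusted p = 0.419).

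Levels were also compared between embryos of the same genotype at 8C, over 9 correlations of log2(TPM + 1). In 21 mz_DHet embryos Jund and Ier2 varied together, with Pearson's r = 0.68 (permutation p = 0.00062, adjusted p = 0.00558) and Spearman's rho = 0.67 (permutation p = 0.00124, adjusted p = 0.0112), and r was 0.69 without the 2 embryos farthest from the Jund median. Within the 15 embryos of 8 March r was 0.66 (permutation p = 0.0081, adjusted p = 0.0364) and rho 0.54 (permutation p = 0.0389, adjusted p = 0.117). In the 10 mz_DKO embryos the same pair gave r = -0.49 (permutation p = 0.155). The Jun and Jund levels in mz_DHet gave r = 0.48 (permutation p = 0.0258, adjusted p = 0.0774) and rho = 0.55 (permutation p = 0.0103, adjusted p = 0.0464), with r = 0.41 without the 2 embryos farthest from the Jun median. Within 8 March this r was 0.48 (permutation p = 0.0737), and in mz_DKO it was -0.43 (permutation p = 0.21). The Jun and Ier2 levels gave r = 0.32 in mz_DHet (permutation p = 0.154) and 0.64 in mz_DKO (permutation p = 0.0442, adjusted p = 0.0995).

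Other genes of the pathway were counted from lists of known roles. Among 33 tested immediate early genes other than the members, 9 were higher and 6 lower in mz_DKO at 8C, where 33.7% of all genes were called and 18.9% were higher, and the list's median log2 difference was 0.03, beside 0.05 for all genes. The dual-specificity phosphatase genes Dusp6 and Dusp5, which encode feedback inhibitors of MAP kinase signalling, were among those that rose. Dusp6 was 136 ± 60.5 TPM in mz_DKO (SD, n = 10) and 7.89 ± 6.17 TPM in mz_DHet (n = 21), a log2 difference of 3.92 ± 0.44 (limma adjusted p = 6.5e-10), and Dusp5 differed by 2.74 (limma adjusted p = 8.79e-07). Btg1, an antiproliferative gene, and Klf4, a Krüppel-like transcription factor gene, changed by -2.59 (limma adjusted p = 2.63e-08) and -1.77 (limma adjusted p = 1.2e-06).

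Of 7 tested AP-1-related leucine zipper genes outside the member list, 2 were higher in mz_DKO, Atf4 (0.61 ± 0.16, limma adjusted p = 0.00215) and Mafg (0.51 ± 0.19, limma adjusted p = 0.0284), beside 18.9% of all genes called higher, and the list's median was -0.04. Of 28 upstream kinases and serum response factors, 3 were higher and 2 lower, beside 33.7% of all genes called, with a median of 0.03. These included the ternary complex factor gene Elk3 (1.57 ± 0.38, limma adjusted p = 0.00105) and the MEK gene Map2k2 (-0.75 ± 0.12, limma adjusted p = 1.59e-06). Of 6 regulators of AP-1 and Egr1 proteins, 1 was higher and 1 lower, beside the same 33.7%. Itch, a ubiquitin ligase that targets Jun and Junb proteins for degradation, was 16.3 ± 5.81 TPM in mz_DKO and 43.0 ± 10.5 TPM in mz_DHet, a log2 change of -1.40 ± 0.16 (limma adjusted p = 2.04e-09). Of 7 tested genes known as AP-1 or Egr1 targets in other cells, 0 were higher and 1 was lower, Pdgfa (-1.75 ± 0.29, limma adjusted p = 3.66e-06), again beside 33.7%.

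In mz_NrKO at 8C, 6 of the 33 other immediate early genes were higher and 10 lower, with a list median of -0.25 beside 0 for all genes. In that comparison 28.3% of all genes were called and 14.1% were higher, which is the share each list is read against. The leucine zipper list had 0 higher and 1 lower of 7, the kinases 2 higher and 6 lower of 28, the regulators 0 higher and 2 lower of 6, and the targets 0 higher and 1 lower of 7. Dusp6 was higher in mz_NrKO too (2.92, limma adjusted p = 8.39e-07), and Klf4 changed by -2.12 (limma adjusted p = 5.5e-08). In mz_EKO no gene of the 5 lists passed the limma test.

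Genes of other stages and tissues had other levels in mz_DKO, and in mz_NrKO, than in the controls at 8C. The summed level of 7 morula and trophectoderm markers had a median of 399 TPM in mz_DKO (101 to 895), 496 TPM in mz_NrKO (197 to 2578), 1272 TPM in mz_EKO (972 to 1934) and 1121 TPM in mz_DHet (197 to 1783). That of 7 genes of the 2-cell burst was 110 TPM (31.1 to 535) in mz_DKO, 62.1 TPM (5.99 to 268) in mz_NrKO, 19.2 TPM (5.46 to 28.7) in mz_EKO and 19.1 TPM (1.08 to 60.6) in mz_DHet. Most of the mz_DKO sum came from Tdpoz3 and Tdpoz1 (medians 76.67 and 23.62 TPM). Usp17lc and Zfp352 had medians of 4.234 and 1.091 TPM there, and Zscan4c, Zscan4d and Zscan4f medians of 0 in every genotype. The sum of the 6 measured oocyte markers was 106 TPM (22.1 to 156) in mz_DKO, 57.3 TPM (10.7 to 154) in mz_NrKO and 20.3 TPM (6.23 to 57.6) in mz_DHet, most of it from Zp3. The 7 blood markers summed to a median of 72.3 TPM in mz_DKO (34.3 to 193), 72.6 TPM in mz_NrKO (2.96 to 120) and 4.71 TPM in mz_DHet (0 to 31.9). The 6 fibroblast markers summed to 32.8 TPM in mz_DKO (6.89 to 63.3), 22.3 TPM in mz_NrKO (1.62 to 56.9) and 4.50 TPM in mz_DHet (0.107 to 27.9), nearly all of it from Pdgfra, whose own medians were 32.4, 21.5 and 4.50 TPM. The median blood marker sums of mz_NrKO and mz_DKO were thus close to each other. The blood markers Hbb-bs, Hbb-bt and Ptprc and the fibroblast markers Col1a2, Col3a1 and Lum were at 0 in mz_DKO, while Cd74, on the blood list, had a median of 65.9 TPM there, 54.5 TPM in mz_NrKO and 3.00 TPM in mz_DHet. Hba-a2 was 1.025 to 19.44 TPM in mz_DKO (median 5.548) and had a median of 0 in mz_DHet. Hba-a1 reached 14.77 TPM in mz_DKO and 2.527 TPM in mz_DHet, and Alas2 reached 6.244 and 4.037 TPM. Of the other fibroblast markers, Col1a1 reached 9.219 and 0.4178 TPM, and Dcn 0.7447 and 1.879 TPM. The 13 cumulus and granulosa markers summed to a median of 23.7 TPM in mz_DKO (11.1 to 37.7) and 26.1 TPM in mz_DHet (10.5 to 57.6), with 9 of them at 0 in every mz_DKO embryo. The part of these differences in the levels of Jun, Jund and Ier2 was not tested.

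The genes with the most similar profiles were found among 11077 candidates, by Pearson's r of group means of log2(TPM + 1) over the 22 groups, which share dates and libraries between genes. They were Abhd12b, Aim2 and Ccn2 for Jun (r = 0.964, 0.957 and 0.957), Mocs3, Trib3 and Tnfsf12 for Jund (0.987, 0.986 and 0.984), and Anxa8, Atp6v0a1 and Dynap for Ier2 (0.939, 0.937 and 0.933). Those for Egr1 were Nsun4, Micu2 and Asxl1 (0.981, 0.98 and 0.979), and for Fosb Capn7, Ppp1r3d and Repin1 (0.987, 0.982 and 0.982). Junb and Fosl2 had no gene as close, with highest values of 0.855 (Cep72) and 0.791 (Rasl11b), and Fos and Fosl1 were too low in every group for this comparison.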

How the data were processed

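Single mouse oocytes and embryos were profiled with a protocol derived from FLASH-seq, per the labels' protocols, in which reads are divided into 5′ UMI reads and full-length reads. The values are TPM made by the authors; cutadapt, STAR, RSEM, DESeq2 and build mm10 are named in the submitters' processing notes without versions. The authors' deposited tables also give log2 fold changes and false discovery rates (adjusted p-values), called by them, per the file headers, by 3 thresholds: 10 TPM, a fold of 1.5 and a rate of 0.1. TPM keep no read counts, so depth is unknown and no counting interval can be given. Of 514 samples, 263 full-length and 110 UMI libraries were used, and 141 UMI samples were not analysed here. The 65 full-length entries without a gene name were left out.

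Samples were grouped by their labels. Each stage was fitted once with limma 3.58.1 (R 4.3.3, limma-trend) on log2(TPM + 1), with group and labelled date as factors, and a gene entered if the count of libraries reaching 5 TPM was no smaller than the stage's smallest group. P-values are two-sided, adjusted by Benjamini-Hochberg over all genes tested, and called below 0.05. The scale understates changes of genes near 1 TPM. L2C, 4C and 8C were fitted jointly for stage steps and interactions; 4C and 8C share no date and are linked through L2C. The steps from the oocyte to L2C were fitted without date. Correlations used 100000 permutations. The script was tested on simulated data with known changes. Alternatives covered pseudocount, filter, scaling, date, replicate block, samples in the fit, UMI reads, control groups and omitted libraries. All 9 members are named, up to 4 genes per pathway list by smallest adjusted p, and the 3 most similar genes per member. The members and lists were chosen with earlier results of these data known.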

Additional observations from a re-analysis of the deposited data

Results flagged for a closer look

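In 42 sets, each of 1 member in 1 group with a mean of at least 5 TPM, 6 libraries lay far from the rest by Dixon's criterion. The larger groups were not examined, namely all those of E2C, the 8C controls and the NrHet and NrKO oocytes. Chance alone meets the criterion in about 1 in 20 sets of normally distributed values. Whether TPM meet that condition was not tested, and all 6 were high values. Fosb was 25.95 TPM in Nrpp oocyte replicate 6, with 13.6 TPM in the nearest library. Ier2 was 28.47 TPM in 4C mz_DHet replicate 2, the highest control of that stage, with 10.7 TPM in the nearest. Ier2 was also 23.51 TPM in L2C mz_NrKO replicate 8, with 10.8 TPM in the nearest. Junb was 27.68 TPM in 8C mz_EKO replicate 7, with 14.8 TPM in the nearest. Jund was 89.71 TPM in 4C mz_DKO replicate 10, with 49.1 TPM in the nearest, and 192.3 TPM in L2C mz_NrKO replicate 9, with 83.8 TPM in the nearest. Junb, Jun, Fos and Egr1 were also highest of the 4C controls in mz_DHet replicate 2.

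The effect of mz_DKO on Fos differed between 8C and 4C, by 1.45 on the log2 scale in the interaction term of the joint fit. Few libraries reached 5 TPM of Fos in that fit, and mz_DKO embryos of 8C were among them. The filter was passed only through those embryos, the group in which Fos was high, and no conclusion is drawn from this difference. Without 4C mz_DHet replicate 2, the control with 6.61 TPM of Fos, the difference was 0.96 and did not pass the test (limma adjusted p = 0.252).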

How the results depend on the processing

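No called difference reversed its direction under the alternatives run. Among differences that were not called the sign could change, as for Jund in L2C mz_NrKO (0.05, and -0.25 in UMI reads) and Egr1 in E2C mz_NrKO (0.06, and -0.12 on 1 August). Jun, Jund and Ier2 in mz_DKO against mz_DHet at 8C kept their calls under all 10 alternatives, with log2 differences of 1.49 to 2.12, 1.34 to 1.98 and 1.08 to 1.40 (limma adjusted p at most 0.000497, 0.000475 and 0.00488), and with each of 51 libraries left out (1.79 to 2.07, 1.47 to 1.70 and 1.13 to 1.35). For mz_NrKO against mz_DHet at 8C, 1 member was called; 0 were without the date factor, 2 with median-of-ratios scaling, where Ier2 joined (0.60, limma adjusted p = 0.0479), and 1 to 2 with each library left out, 2 only without mz_NrKO replicate 1. For mz_NrKO against mz_EKO at 8C, 0 were called without the date factor. For mz_DKO against mz_NrKO, 1 was called with a pseudocount of 5 TPM (Jun, 1.23, limma adjusted p = 0.046), and at E2C 1 in m_NrKO against mz_NrHet on the single date 1 August (Fosb, 1.20, limma adjusted p = 0.0496). Fosb passed the filter of that single-date fit only through m_NrKO, the group in which it was high. The interaction of mz_DKO gave 1 call (Jun) at 8C against L2C with a pseudocount of 5 TPM, and 0 at 8C against 4C with 0.1 TPM, without a filter (Fos, limma adjusted p = 0.0699) or without 4C mz_DHet replicate 2. Among stage steps, Junb from oocyte to E2C was not called with a pseudocount of 5 TPM (0.38, limma adjusted p = 0.0703), nor Ier2 from 4C to 8C with 0.1 TPM (1.71, limma adjusted p = 0.198), without a filter (limma adjusted p = 0.0789) or with a 1 TPM filter (limma adjusted p = 0.0535). The omission of mz_DHet replicate 2 and the split of 8C mz_NrKO by date were chosen after seeing the data. The cause of these changes was not tested. Library numbers did not pair embryos at 8C (correlations of same-numbered embryos from -0.211 to 0.467), and the replicate block lost no call there (Jund in mz_NrKO 1.16, limma adjusted p = 0.0219). TPM without counts give no limit of detection for values of 0.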
